A study of Mus musculus with 8 samples.

Results

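The 36 genes described here encode the proteins that take up glucose, break it down to pyruvate, turn pyruvate into lactate or feed it to the mitochondrion, and build glycogen. They were chosen by symbol from the exon count and FPKM tables, 1 row for each symbol, and all 36 were found among the 78298 rows of the table. FPKM is scaled to exon length and library size, so values of different genes can be compared. The cells were wild-type NIH3T3, an established line of mouse embryo fibroblasts, kept for 1 day with vehicle (4 libraries) or with Mic-628 (4 libraries), the compound that the title of the study calls a Period1 inducer. All 8 were poly(A) RNA libraries, and each batch number from 1 to 4 occurs in 1 library of each group. The labels name neither a dose nor the culture dish behind each library, so every p-value here reflects only how much these libraries vary, and that variation may be technical. This is 1 cell line, sampled at 1 time.

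Glucose enters fibroblasts through facilitative transporters and is trapped as glucose-6-phosphate by hexokinase. Phosphofructokinase then commits it to glycolysis, and a series of abundant enzymes splits the sugar and yields pyruvate and ATP. Lactate dehydrogenase reduces pyruvate to lactate, while the pyruvate dehydrogenase complex, held in check by its kinases, passes it to the citric acid cycle. Glucose-6-phosphate can instead be stored as glycogen. Many of these genes are textbook targets of the hypoxia-inducible factor HIF-1, which binds the core letters ACGTG or GCGTG, and the E-box CACGTG is read by MYC and by clock factors.

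Promoter letters are shown first for 4 genes described below: Hk2, the gene with the largest rise, Pfkl and Pgm1, both among the falls, and Ldha, whose first listed window holds the most ACGTG of any member. Each run is the 250 bases before the RefSeq start on GRCm38.p6, read 5′ to 3′ on the gene's strand, and capitals mark ACGTG and GCGTG on either strand. On the reverse strand ACGTG reads as CACGT. All runs shown hold ACGTG or GCGTG, so they do not stand for the members as a whole. Pdk1 and Gys1, the members with the largest falls, are not shown. Neither ACGTG nor GCGTG occurs in the Gys1 window. Pdk1 has no ACGTG, and GCGTG in 1 of its 2 windows. Eno3, which also rose, is not shown either, and its window holds GCGTG but no ACGTG.

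Hk2, chr6:82774455-82774704, minus strand: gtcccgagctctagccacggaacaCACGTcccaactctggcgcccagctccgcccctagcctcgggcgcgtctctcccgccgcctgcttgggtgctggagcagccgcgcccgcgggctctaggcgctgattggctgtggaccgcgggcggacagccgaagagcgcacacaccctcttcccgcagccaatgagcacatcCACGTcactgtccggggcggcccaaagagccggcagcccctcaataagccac

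Pfkl, chr10:78009808-78010057, minus strand: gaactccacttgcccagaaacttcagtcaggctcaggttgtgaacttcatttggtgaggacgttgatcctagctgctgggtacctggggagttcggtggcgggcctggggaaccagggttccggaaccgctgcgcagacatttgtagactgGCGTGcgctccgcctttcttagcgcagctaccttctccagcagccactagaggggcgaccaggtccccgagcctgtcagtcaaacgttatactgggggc

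Pgm1, chr4:99929201-99929450, plus strand: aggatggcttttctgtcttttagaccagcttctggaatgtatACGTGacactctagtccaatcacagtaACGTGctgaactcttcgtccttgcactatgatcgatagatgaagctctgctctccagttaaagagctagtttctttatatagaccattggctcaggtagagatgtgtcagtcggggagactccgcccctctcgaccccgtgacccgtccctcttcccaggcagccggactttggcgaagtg

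Ldha, chr7:46845554-46845803, plus strand: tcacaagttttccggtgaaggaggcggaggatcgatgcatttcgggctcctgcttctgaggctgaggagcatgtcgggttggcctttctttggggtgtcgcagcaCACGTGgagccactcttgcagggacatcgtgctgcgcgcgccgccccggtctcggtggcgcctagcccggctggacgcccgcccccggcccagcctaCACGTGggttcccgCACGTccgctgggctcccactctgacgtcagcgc

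The Hk2 window holds ACGTG at 226 and 52 bases before the start, on the reverse strand, and the Pgm1 window holds it at 208 and 181 bases. The Pfkl window holds 1 GCGTG and the Ldha window 5 ACGTG matches, of which 2 pairs are the 2 strands of a CACGTG. Windows were available for 35 of the 36 members, all but Slc2a3, and a member or gene with several windows counts as a match when any of them holds the letters. ACGTG, searched on both strands, occurred in 5 of the 15 members that fell (33.3%), in 1 of the 2 that rose, and in 11 of the 18 others (61.1%), against 18.5% of 27025 genes. GCGTG occurred in 8 of the 15 members that fell (53.3%), in 1 of the 2 that rose and in 12 of the 18 others (66.7%), against 30.9% of all genes. CACGTG, which contains ACGTG on both strands, occurred in 1 of the 15 (6.67%), 0 of the 2 and 5 of the 18 (27.8%), against 6.86% of all genes. A gene with more windows has more chances to match, and the shares were not adjusted for this. Nor were the 27025 genes limited to those expressed in these cells. The shares of these groups were not compared by a test. A match describes letters in a window and not a bound site.

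After 1 day of Mic-628, 15 of the 36 genes fell, 2 rose and 16 did not pass the test. The other 3, Slc2a3, Aldoc and Pgam2, had too few counts to be tested. The falls lay at almost every stage of the route, from the isomerase Gpi1 to lactate dehydrogenase and glycogen synthase, and were small, between -0.14 and -0.37 on the log2 scale of the fitted fold change. The 2 rises were Hk2, a hexokinase, and Eno3, an enolase. The test was edgeR's quasi-likelihood test with Benjamini-Hochberg adjustment over all 17128 rows with enough counts, and a gene was called at an adjusted p under 0.05. Of all tested rows 4.37% were called, 2.13% higher and 2.25% lower. Among the 9758 rows with a mean of at least 10 CPM (counts scaled to library size), a level that 29 of the 33 tested members reach, 6.35% were called, 3.05% higher and 3.30% lower. All 17 called members are among those 29. The median log2 fold change was -0.14 over the 33 tested members, of which 25 were negative, and -0.00 over all tested rows. The 2 groups did not overlap in 12 members that were lower and 3 that were higher with Mic-628, against 5.07% and 5.63% of all tested rows and 6.52% and 7.95% of those with at least 10 CPM. In bulk RNA, fewer cells that express a gene and less of its RNA per cell cannot be told apart.

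The number of calls moved with the test and with single libraries. Limma-trend on log2(FPKM + 1) called 4 members (Hk2, Eno3, Pfkl and Ldhb) and 1.64% of all its rows. It had 20 of 32 members at an unadjusted p under 0.05, a threshold at which the share of all rows was not counted. Without Mic-628 replicate 3 edgeR called 11 members, of which 9 were lower, and 2.53% of all rows. Both shares of all rows are below the 4.37% of the full fit.

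**Figure D1:**
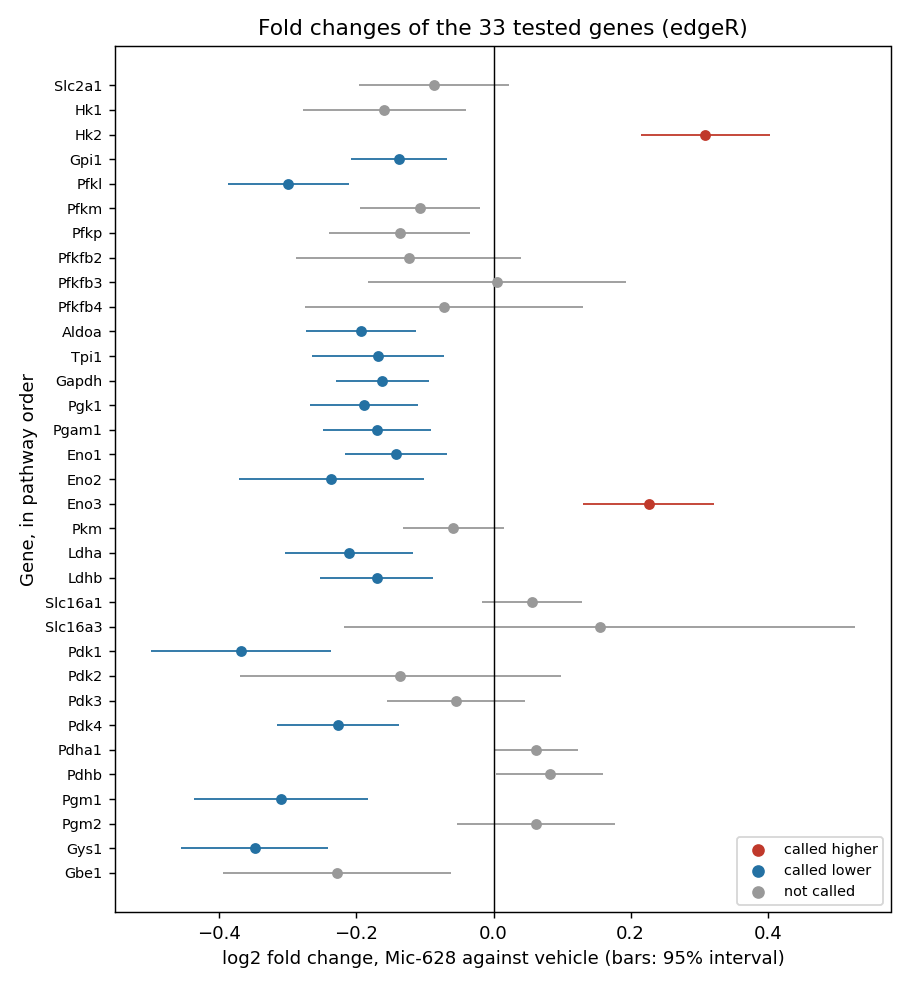
The log2 fold change of Mic-628 against vehicle (x axis) is plotted for the 33 tested genes in pathway order, with 95% intervals from the edgeR fit. Red marks the 2 genes that rose, blue the 15 that fell and grey the 16 not called. Hk2 and Eno3 stand to the right of 0, and the called falls reach from -0.14 to -0.37.

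The size of the falls differed between the 4 pairs of libraries with the same batch number. With 1 library of each group per batch, a batch difference and the scatter of single libraries cannot be told apart. Between the 2 libraries of a batch, the median log2 difference over the 15 fallen members was -0.30 in batch 1, -0.27 in batch 2, -0.21 in batch 3 and -0.06 in batch 4. These 15 were called from the same libraries, so medians below 0 follow in part from that choice. Over all 33 tested members the medians were -0.20, -0.18, -0.15 and 0.004 in batches 1 to 4. The same medians over all tested rows lay between -0.01 and 0.00. Batch 4 had the smallest difference in 14 of the 15, and in 12 of them all 4 batches were lower with Mic-628. The exceptions were Tpi1, Eno2 and Ldha, which were lower in 3 of 4 batches and not in batch 4. In the 12, other than Pgm1, the groups do not overlap in scaled CPM, so each batch had to be lower. Among the vehicle libraries replicate 4 was the lowest for 13 of the 15, and among the Mic-628 libraries replicate 3 was the lowest for 13. Whether this order of libraries comes from culture or handling was not tested. The 36 genes together took 1.499%, 1.51%, 1.38% and 1.34% of the counts in vehicle libraries 1 to 4 and 1.29%, 1.33%, 1.26% and 1.34% in Mic-628 libraries 1 to 4. The 2 groups overlap in this share, since vehicle library 4 lies just below Mic-628 library 4.

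**Figure D2:**
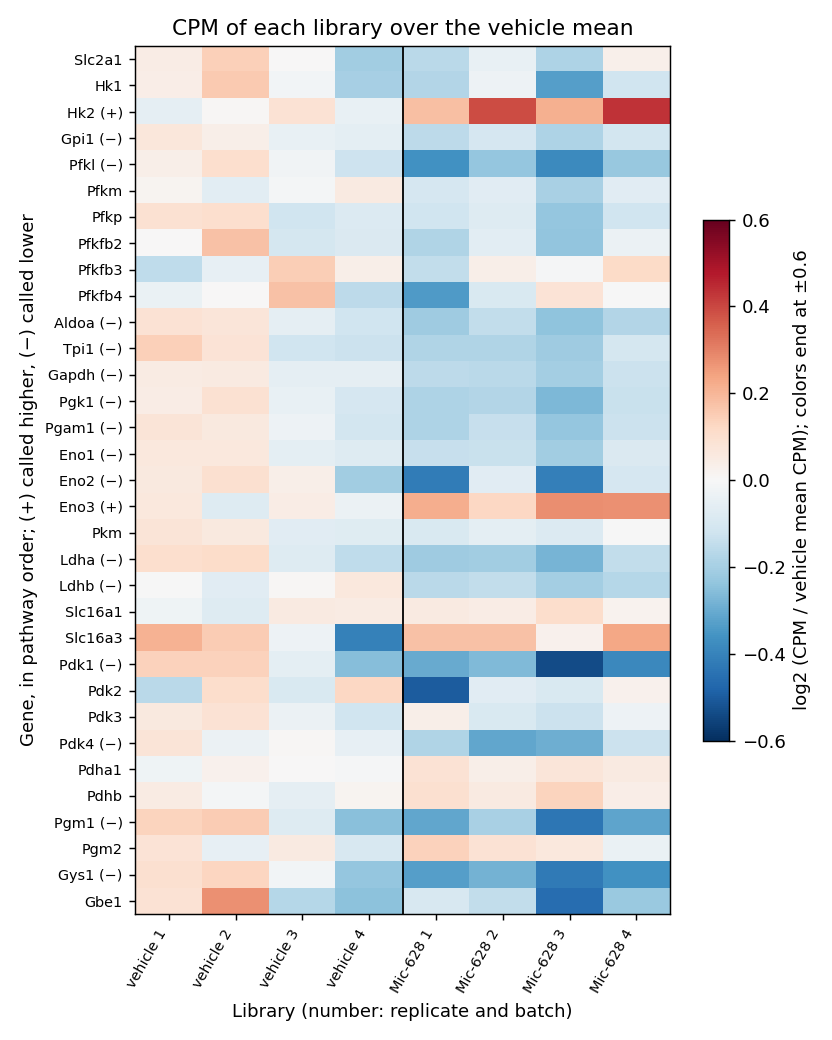
Each cell is the log2 ratio of a gene's CPM in 1 library to its vehicle mean (color, scale ending at ±0.6), with tested genes in rows and libraries in columns. Hk2 and Eno3 are red in all 4 Mic-628 libraries. Of the 15 rows that fell, 13 are lowest among vehicle columns in replicate 4, and 13, not all the same rows, are lowest among Mic-628 columns in replicate 3.

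Slc2a1, which encodes the transporter GLUT1 (mm39 chr4:118965908-118995180, plus strand), was the more abundant RNA of the 2 transporter genes. Transporter RNA was measured here and uptake was not. It stood at 117, 125, 114 and 97.9 FPKM in vehicle libraries 1 to 4 and at 101, 110, 99.98 and 115 FPKM in Mic-628 libraries 1 to 4. The groups overlap, and vehicle replicate 4 is the lowest of all. The log2 fold change was -0.09 (95% interval -0.20 to 0.02, adjusted p = 0.428, edgeR's quasi-likelihood test), and without vehicle replicate 4 it was -0.15 with an adjusted p of 0.0486. Gm12868, a predicted gene on the opposite strand, overlaps Slc2a1 with 40.2 FPKM. Slc2a3, which encodes the high-affinity transporter GLUT3, was close to absent, with 0.0488 ± 0.0183 FPKM (SD, n = 4) in vehicle and 0.0655 ± 0.0295 FPKM in Mic-628.

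The hexokinase step showed the largest rise among the members. Hk2 (transcript ENSMUST00000000642.11, mm39 chr6:82702006-82751435, minus strand) encodes the inducible, mitochondrion-binding hexokinase of muscle, fat and proliferating cells. It stood at 45.5, 47.4, 49.97 and 45.5 FPKM in vehicle libraries 1 to 4 and at 53.1, 62.0, 54.6 and 63.4 FPKM in Mic-628 libraries 1 to 4. Every Mic-628 library was above every vehicle library, with replicates 2 and 4 the highest. Hk2 rose by 23.9% (95% interval 16.03% to 32.3%), a log2 fold change of 0.31 ± 0.05 (SE) with an adjusted p of 8.59e-05 by edgeR's quasi-likelihood test. It kept its call without any 1 library or batch.

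Hk1, the hexokinase found in most tissues, was not called. It stood at 25.4, 27.6, 24.4 and 21.5 FPKM in vehicle and at 21.8, 24.3, 19.7 and 22.7 FPKM in Mic-628. The groups overlap, and the log2 fold change of -0.16 was not called (adjusted p = 0.133 by edgeR's quasi-likelihood test), although without vehicle replicate 4 it was -0.22 with an adjusted p of 0.00907. Hk2 therefore made up 65.6% ± 2.32 (SD, n = 4) of the summed FPKM of both genes in vehicle and 72.5% ± 1.31 in Mic-628. The lowest Mic-628 share, 70.9%, was above the highest vehicle share, 67.9%. The sum itself was 71.8 ± 3.67 FPKM in vehicle and 80.4 ± 6.67 FPKM in Mic-628.

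Gpi1, which encodes the isomerase that turns glucose-6-phosphate into fructose-6-phosphate, moved the other way. It stood at 287, 280, 265 and 262 FPKM in vehicle and at 244, 257, 241 and 252 FPKM in Mic-628, with no overlap. Its log2 fold change was -0.14 (adjusted p = 0.0169), and the call was lost without vehicle replicate 2 (adjusted p = 0.0838) or Mic-628 replicate 3 (adjusted p = 0.0931), all by edgeR's quasi-likelihood test.

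**Figure D3:**
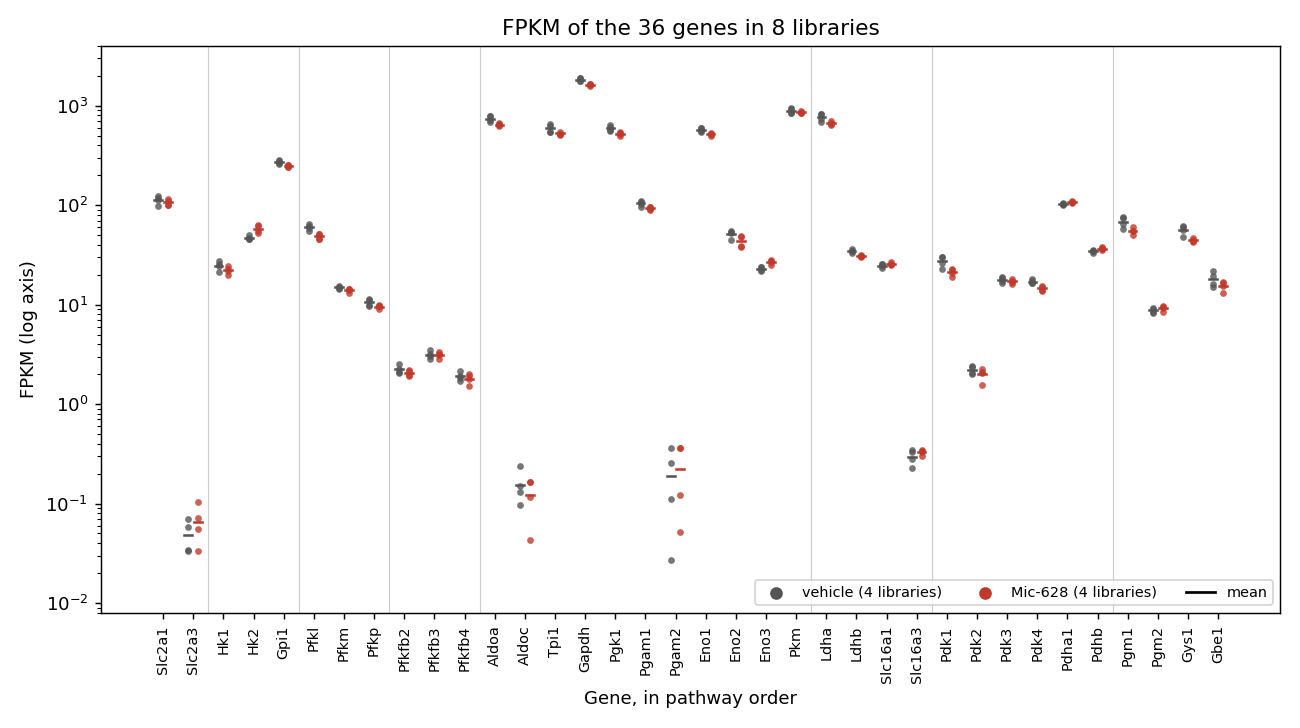
FPKM on a log axis is plotted for the 36 genes in pathway order, with 1 point per library, vehicle in grey, Mic-628 in red, and a bar at each mean. Gapdh is the highest at 1828 FPKM in vehicle, and Slc2a3, Aldoc and Pgam2 lie below 1 FPKM.

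Phosphofructokinase is the committing step, and most of its RNA came from the liver-type subunit gene Pfkl. Pfkl (mm39 chr10:77822781-77845641, minus strand) stood at 61.2, 64.2, 58.8 and 54.7 FPKM in vehicle and at 46.3, 51.0, 45.9 and 50.8 FPKM in Mic-628. All Mic-628 libraries were below all vehicle libraries. It fell by 0.30 ± 0.04 (SE) on the log2 scale, a change of -18.7% (adjusted p = 5.39e-05, edgeR's quasi-likelihood test). This call held without each library and each batch.

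The muscle-type gene Pfkm stood at 15.2, 14.3, 14.9 and 15.5 FPKM in vehicle and at 13.9, 14.3, 13.1 and 14.2 FPKM in Mic-628. These groups only just separate, and the log2 fold change of -0.11 was not called (adjusted p = 0.177, edgeR's quasi-likelihood test). The platelet-type gene Pfkp stood at 11.2, 11.3, 9.69 and 9.92 FPKM in vehicle and at 9.65, 10.0, 8.98 and 9.65 FPKM in Mic-628. Its groups overlap, and its log2 fold change of -0.14 was not called (adjusted p = 0.136, edgeR's quasi-likelihood test). A higher row, Pitrm1 at 53.6 FPKM, overlaps Pfkp on the opposite strand, and Senp1 at 7.39 FPKM overlaps Pfkm. The libraries were made with a stranded kit, but the sources used here do not say whether the counting used strand, so reads of opposite-strand partners may not have been told apart. Summed over the 3 genes, phosphofructokinase FPKM was 85.2 ± 4.31 (SD, n = 4) in vehicle and 72.0 ± 3.62 in Mic-628. Pfkl made up 70.03% ± 1.36 of that sum in vehicle and 67.4% ± 0.765 in Mic-628.

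The PFKFB enzymes make and break fructose-2,6-bisphosphate, the activator of phosphofructokinase. All 3 genes were expressed at a few FPKM. EdgeR called 0 of them, DESeq2 called 0, and 0 had an unadjusted p under 0.05. Pfkfb3, the isoform with the strongest kinase activity, stood at 3.13 ± 0.277 FPKM (SD, n = 4) in vehicle and 3.13 ± 0.237 FPKM in Mic-628, with a log2 fold change of 0.01 (95% interval -0.18 to 0.19). Pfkfb2 stood at 2.24 ± 0.205 and 2.05 ± 0.134 FPKM, and Pfkfb4 at 1.90 ± 0.181 and 1.80 ± 0.216 FPKM, in vehicle and Mic-628. Their log2 fold changes were -0.12 and -0.07.

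Of the 9 tested genes for the enzymes from aldolase to pyruvate kinase, 7 fell and Eno3 rose. Aldoa, the aldolase that splits fructose-1,6-bisphosphate, stood at 789, 781, 715 and 681 FPKM in vehicle and at 638, 672, 629 and 654 FPKM in Mic-628. Its groups do not overlap, and it fell by 0.19 on the log2 scale (adjusted p = 0.00352, edgeR's quasi-likelihood test). Its paralog Aldoc, the brain aldolase, was listed at 0.132, 0.239, 0.096 and 0.149 FPKM in vehicle and at 0.166, 0.043, 0.117 and 0.166 FPKM in Mic-628. These levels, far below 1 FPKM, overlap.

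Gapdh, which encodes the dehydrogenase that makes NADH in glycolysis, was the most abundant member. It stood at 1892, 1899, 1761 and 1758 FPKM in vehicle and at 1635, 1638, 1590 and 1667 FPKM in Mic-628. All 4 Mic-628 libraries were lower than all 4 vehicle libraries, and Gapdh fell by 0.16 on the log2 scale (adjusted p = 0.00373, edgeR's quasi-likelihood test), a change of -10.6%. Pgk1, the phosphoglycerate kinase that makes ATP at the next step, stood at 614, 634, 577 and 554 FPKM in vehicle and at 522, 529, 494 and 541 FPKM in Mic-628. Its groups do not overlap either, and it fell by 0.19 on the log2 scale (adjusted p = 0.00351, edgeR's quasi-likelihood test).

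Tpi1, the triose phosphate isomerase, stood at 658, 630, 548 and 542 FPKM in vehicle and at 523, 526, 514 and 551 FPKM in Mic-628. Mic-628 library 4 lies above vehicle libraries 3 and 4. The call (log2 fold change -0.17, adjusted p = 0.0373, edgeR's quasi-likelihood test) was among the least stable. It was lost without vehicle replicate 1 (0.0994) or 2 (0.169), without Mic-628 replicate 1 (0.0864), 2 (0.0931) or 3 (0.147), and with DESeq2 (0.227), each an adjusted p. An uncharacterized row on the opposite strand, ENSMUSG00000139182, overlaps Tpi1 at 449 FPKM, 80.0% of the Tpi1 level, and was lower too (log2 fold change -0.20, adjusted p = 0.0183, edgeR's quasi-likelihood test).

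Pgam1, a phosphoglycerate mutase, stood at 110, 109, 102 and 96.9 FPKM in vehicle and at 91.7, 95.6, 89.2 and 95.4 FPKM in Mic-628. The groups do not overlap, and Pgam1 fell by 0.17 on the log2 scale (adjusted p = 0.00846, edgeR's quasi-likelihood test). The call was lost without vehicle replicate 2 (adjusted p = 0.0540) or Mic-628 replicate 3 (adjusted p = 0.0596). The row ENSMUSG00000141453 overlaps it on the opposite strand at 25.5 FPKM. That row was called lower too (log2 fold change -0.28, adjusted p = 0.00423, edgeR's quasi-likelihood test). The muscle form Pgam2 was listed at 0.110, 0.256, 0.027 and 0.364 FPKM in vehicle and at 0.122, 0.358, 0.362 and 0.052 FPKM in Mic-628, too low and scattered to compare.

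The 3 enolase genes, which encode the dehydrating step before pyruvate kinase, did not move together. Eno1, the common form, stood at 600.5, 601, 552 and 543 FPKM in vehicle and at 519, 525, 499 and 538 FPKM in Mic-628, with no overlap. It fell by 0.14 on the log2 scale (adjusted p = 0.0222, edgeR's quasi-likelihood test), but the call was lost on leaving out vehicle replicate 2 (0.125) or Mic-628 replicate 2 (0.0525) or 3 (0.123). Eno1b, a retrotransposed copy of Eno1 with which it may exchange reads, stood at 82.2 FPKM over all libraries and had the same log2 fold change of -0.14. Eno2, the neuronal form, stood at 53.6, 55.0, 52.6 and 44.3 FPKM in vehicle and at 38.3, 49.2, 38.8 and 47.8 FPKM in Mic-628. Mic-628 libraries 1 and 3 are low, whereas libraries 2 and 4 overlap vehicle library 4. Its log2 fold change of -0.24 (adjusted p = 0.0372, edgeR's quasi-likelihood test) lost its call without vehicle replicate 1 (0.0571), 2 (0.154) or 3 (0.0993), without Mic-628 replicate 1 (0.158) or 3 (0.185), and with DESeq2 (0.305).

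Eno3 (transcript ENSMUST00000072841.12, mm39 chr11:70548028-70553339, plus strand), the muscle form, rose. It stood at 24.1, 21.9, 23.7 and 22.4 FPKM in vehicle and at 26.7, 25.2, 28.0 and 27.8 FPKM in Mic-628. Every Mic-628 library was above every vehicle library, and Mic-628 was therefore higher in all 4 batches. Eno3 rose by 17.0% (95% interval 9.50% to 25.0%, adjusted p = 0.00377, edgeR's quasi-likelihood test). With the batch as a block, DESeq2 gave an adjusted p of 0.0604. Its share of the summed enolase FPKM was 3.56% ± 0.238 (SD, n = 4) in vehicle and 4.57% ± 0.305 in Mic-628, while Eno1 made up 88.5% and 88.1%. The row ENSMUSG00000143258 overlaps Eno3 on the opposite strand at 11.6 FPKM, 46.3% of its level, and was not called (log2 fold change 0.11). Of the 4 skeletal muscle markers, Myog and Myh1 were listed at 0 in all libraries, Ckm was at most 0.025 FPKM, and Acta1 stood at 0.376 ± 0.151 FPKM in vehicle and 0.585 ± 0.166 FPKM in Mic-628. Acta1 had a log2 fold change of 0.65 that did not pass (adjusted p = 0.232, edgeR's quasi-likelihood test), and its part in the Eno3 result was not tested.

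Pkm, which encodes pyruvate kinase and its splice forms M1 and M2 (not separated here), stood at 945, 932, 856 and 849 FPKM in vehicle and at 838, 862, 849 and 890 FPKM in Mic-628. The groups overlap, and the log2 fold change of -0.06 was not called (95% interval -0.13 to 0.02, adjusted p = 0.431, edgeR's quasi-likelihood test). The row ENSMUSG00000140944 overlaps Pkm on the opposite strand at 254 FPKM.

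Lactate dehydrogenase fell in both its genes, while the lactate transporters were not called. Ldha, whose subunit favors lactate formation, stood at 829, 833, 732 and 694 FPKM in vehicle and at 663, 671, 637 and 695 FPKM in Mic-628. Only Mic-628 library 4 reaches the vehicle range, just above vehicle library 4. Ldha fell by 0.21 on the log2 scale (adjusted p = 0.00574, edgeR's quasi-likelihood test), with adjusted p values of 0.0537 by DESeq2 and 0.231 by DESeq2 with the batch as a block. Ldhb, the heart-type subunit, stood at 34.8, 33.3, 35.0 and 36.3 FPKM in vehicle and at 31.0, 31.6, 30.3 and 30.8 FPKM in Mic-628. Its groups do not overlap, and it fell by 0.17 on the log2 scale (adjusted p = 0.0129, edgeR's quasi-likelihood test). It was not called without Mic-628 replicate 3 (0.0591) or by DESeq2 with the batch as a block (0.310). Ldha made up 95.6% of the summed FPKM of both genes in each group, and their log2 count ratio differed by 0.04 (adjusted p = 0.771, exact permutation test).

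Slc16a1, which encodes the lactate carrier MCT1, stood at 24.7 ± 1.05 FPKM (SD, n = 4) in vehicle and 25.7 ± 0.666 FPKM in Mic-628. Its log2 fold change was 0.06 (95% interval -0.02 to 0.13, adjusted p = 0.445, edgeR's quasi-likelihood test). Slc16a3, which encodes the export carrier MCT4, was near the floor at 0.295 ± 0.0529 FPKM in vehicle and 0.329 ± 0.0213 FPKM in Mic-628. MCT1 RNA made up 98.8% of the summed FPKM of both carriers in vehicle.

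The pyruvate dehydrogenase kinases switch off the entry of pyruvate into the citric acid cycle, and 2 of the 4 genes fell. Pdk1 (mm39 chr2:71703568-71734202, plus strand) had the largest fall of all members. It stood at 30.1, 30.2, 26.3 and 22.8 FPKM in vehicle and at 22.1, 22.8, 18.9 and 20.9 FPKM in Mic-628. Vehicle library 4 and Mic-628 library 2 are level in FPKM, and in scaled CPM the groups just separate. Pdk1 fell by 0.37 ± 0.06 (SE) on the log2 scale, a change of -22.6% (adjusted p = 0.000605, edgeR's quasi-likelihood test), and was called without each library and each batch. Pdk4, the kinase linked to fasting and fat use, stood at 18.0, 16.6, 17.1 and 16.4 FPKM in vehicle and at 14.98, 13.8, 13.9 and 15.5 FPKM in Mic-628. All Mic-628 libraries were lower, and Pdk4 fell by 0.23 on the log2 scale (adjusted p = 0.00178, edgeR's quasi-likelihood test).

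The other 2 kinases were not called. Pdk2 stood at 1.99, 2.37, 2.07 and 2.40 FPKM in vehicle and at 1.56, 2.11, 2.08 and 2.24 FPKM in Mic-628. Pdk3 stood at 18.6, 18.9, 17.4 and 16.4 FPKM in vehicle and at 18.2, 16.8, 16.3 and 17.4 FPKM in Mic-628. Both overlap between groups, with log2 fold changes of -0.14 and -0.06. Pdk1 made up 42.4% ± 2.26 (SD, n = 4) of the summed FPKM of the 4 kinases in vehicle and 38.6% ± 1.93 in Mic-628, and Pdk3 27.7% ± 0.477 and 31.3% ± 0.802. The genes of the enzyme that the kinases act on, Pdha1 and Pdhb, which encode the E1 subunits, were not called. Pdha1 stood at 103 ± 1.61 FPKM in vehicle and 108 ± 1.55 FPKM in Mic-628, with all Mic-628 libraries higher (log2 fold change 0.06, adjusted p = 0.286, edgeR's quasi-likelihood test). Pdhb stood at 34.6 ± 1.08 and 36.6 ± 1.09 FPKM, with a log2 fold change of 0.08.

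Glycogen genes held the lowest median of the stages, -0.27 on the log2 scale over 4 tested genes, of which 2 fell. Over 13 further tested genes of glycogen and UDP-glucose, outside the members, the median was -0.02. Gys1 (mm39 chr7:45084268-45106043, plus strand), the glycogen synthase of non-liver tissues, stood at 61.0, 62.3, 56.3 and 48.5 FPKM in vehicle and at 45.1, 47.1, 42.6 and 44.1 FPKM in Mic-628. The groups do not overlap. It fell by 0.35 ± 0.05 (SE) on the log2 scale, a change of -21.5% (adjusted p = 9.27e-05, edgeR's quasi-likelihood test), and was called without each library and each batch. Ruvbl2 overlaps Gys1 on the opposite strand at 60.9 FPKM, and its log2 fold change of -0.07 did not pass. A second opposite-strand row, ENSMUSG00000131051, stood at 13.2 FPKM. Its log2 fold change of -0.27 did not pass either (adjusted p = 0.0703, edgeR's quasi-likelihood test).

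Pgm1, the phosphoglucomutase that links glucose-6-phosphate to glucose-1-phosphate, stood at 75.0, 75.9, 64.7 and 57.1 FPKM in vehicle and at 54.7, 59.9, 50.6 and 54.5 FPKM in Mic-628. Only Mic-628 library 2 reaches the vehicle range, above vehicle library 4. Pgm1 fell by 0.31 on the log2 scale (adjusted p = 0.00278, edgeR's quasi-likelihood test), with an adjusted p of 0.0642 by DESeq2. Its paralog Pgm2 stood at 9.31, 8.48, 9.12 and 8.20 FPKM in vehicle and at 9.63, 9.37, 9.17 and 8.50 FPKM in Mic-628. These overlap, and the log2 fold change of 0.06 was not called. Gbe1, the glycogen branching enzyme, stood at 19.3, 21.9, 16.1 and 15.2 FPKM in vehicle and at 16.9, 16.4, 13.2 and 15.5 FPKM in Mic-628. The groups overlap, and the Gbe1 log2 fold change of -0.23 missed the threshold (adjusted p = 0.121, edgeR's quasi-likelihood test). EdgeR called it with the batch as a block (adjusted p = 0.0251) and without vehicle replicate 4 (adjusted p = 0.0139). DESeq2 did not call it with the block (adjusted p = 0.135) or without it (adjusted p = 0.508), nor did limma-voom (adjusted p = 0.157).

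Within a library, the ratio of a pair of paralogs does not depend on how libraries are scaled. The log2 ratio of counts was compared for 10 pairs by an exact permutation test of the 8 library labels, two-sided, whose smallest possible p is 0.0286, with adjustment over the 10 pairs. Hk2 over Hk1 stood at 1.21, 1.15, 1.401 and 1.45 in vehicle and at 1.65, 1.72, 1.84 and 1.85 in Mic-628, a difference of 0.46 (exact p = 0.0286, adjusted p = 0.0714). Pgm2 over Pgm1 stood at -3.01, -3.17, -2.83 and -2.81 in vehicle and at -2.51, -2.68, -2.47 and -2.69 in Mic-628, a difference of 0.37 (exact p = 0.0286, adjusted p = 0.0714). Pdk1 over Pdk3 differed by -0.31 and Pfkl over Pfkp by -0.16, each with the same p values in the exact test. In these 4 pairs the groups do not overlap, and with 4 libraries a group no pair reached an adjusted p under 0.05. Pfkl over Pfkm differed by -0.19 with overlapping groups (adjusted p = 0.171, exact permutation test), and the other 5 pairs had adjusted p values of 0.476 to 0.771.

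**Figure D4:**
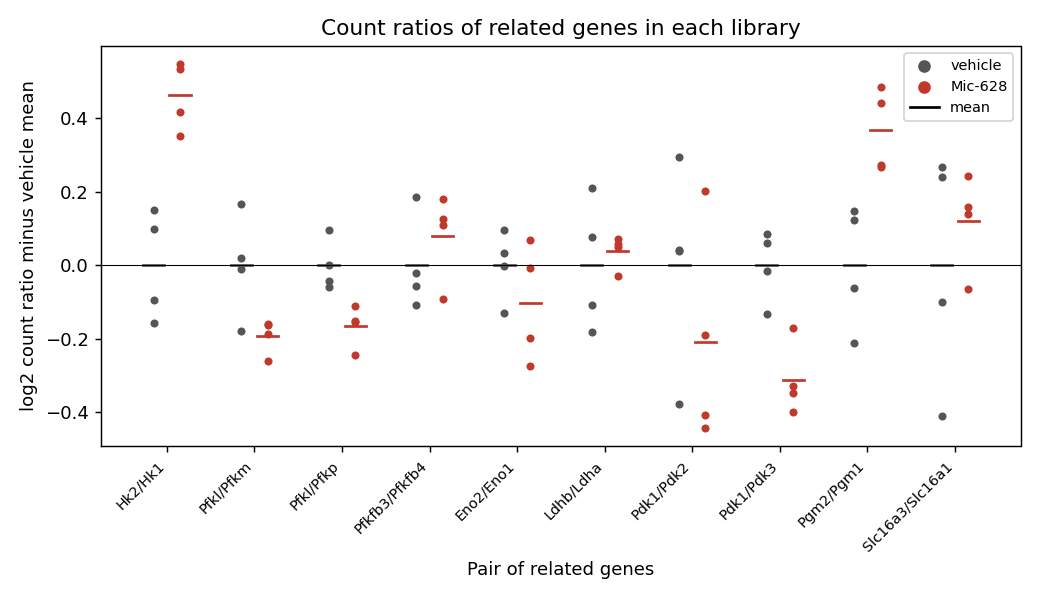
The log2 count ratio of 10 pairs of related genes, less its vehicle mean, is plotted per library, with vehicle in grey, Mic-628 in red and bars at the means. The groups lie apart for Hk2/Hk1, Pfkl/Pfkp, Pdk1/Pdk3 and Pgm2/Pgm1.

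Other genes of glucose metabolism were read from lists of related genes. Of 13 tested further glucose transporters and glycolytic isoforms 0 were called, and of 10 genes for pyruvate entry, among them the mitochondrial carriers Mpc1 and Mpc2, 0 were called by edgeR's quasi-likelihood test, with median log2 fold changes of -0.04 and 0.03. At an unadjusted p under 0.05 stood 2 of the 13 and 3 of the 10, and DESeq2 called 0 of both lists. The share of all rows at that unadjusted threshold was not counted. In the pentose phosphate pathway 1 of 8 fell. It was H6pd, the dehydrogenase of the endoplasmic reticulum, at 13.5 ± 0.344 FPKM (SD, n = 4) in vehicle and 11.7 ± 0.233 FPKM in Mic-628. Among 13 further genes of glycogen and UDP-glucose, with a median log2 fold change of -0.02, 1 fell. It was Epm2a, which encodes the glycogen phosphatase laforin. It stood at 3.38 ± 0.654 FPKM in vehicle and 2.22 ± 0.386 FPKM in Mic-628, a log2 fold change of -0.61. Basigin (Bsg), the partner of the lactate carriers, did not pass at a log2 fold change of -0.13 (adjusted p = 0.0839, edgeR's quasi-likelihood test).

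Among 18 tested regulators of the pathway 1 fell and 1 rose. Egln1, the prolyl hydroxylase that marks HIF-1 alpha for degradation and is itself a HIF-1 target, stood at 28.4 ± 4.69 FPKM (SD, n = 4) in vehicle and 21.6 ± 2.57 FPKM in Mic-628. Its log2 fold change was -0.40 (adjusted p = 0.00405, edgeR's quasi-likelihood test), with overlapping groups and an adjusted p of 0.103 by DESeq2. Hif1a stood at 54.2 ± 1.05 and 53.8 ± 1.88 FPKM and Myc at 118 ± 4.47 and 119 ± 5.04 FPKM, and neither RNA was called. Txnip, an inhibitor of glucose uptake, rose at a very low level, from 0.161 ± 0.0485 to 0.334 ± 0.0663 FPKM. Its call (adjusted p = 0.0293, edgeR's quasi-likelihood test) was lost without vehicle replicate 2 (0.0789), 3 (0.116) or 4 (0.0579) and without Mic-628 replicate 1 (0.0999) or 3 (0.107).

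Summed, the fibroblast markers were far above the markers of the other listed cell types. In vehicle their means ran from 2127 FPKM for Vim and 1599 FPKM for Fn1 down to 0.544 FPKM for Lum. The 11 fibroblast markers summed to 5094 to 5274 FPKM in vehicle and 4444 to 4559 FPKM in Mic-628, and 5 of them fell (Col1a2, Col3a1, Vim, Fn1 and Dcn), as 15 of the genes of glucose metabolism did; the part of this in the results above was not tested. The summed epithelial, endothelial, skeletal muscle and adipocyte markers were at most 0.748, 0.163, 0.738 and 1.06 FPKM in any library. The 4 blood and macrophage markers summed to 7.99 to 8.62 FPKM in vehicle and 8.81 to 9.58 FPKM in Mic-628, nearly all Cd68 and Csf1r, with Adgre1 at 0 and Ptprc at most 0.0600 FPKM. Library totals in the file headers were 19.6 M to 25.1 M (M, mega), of which 92.3% to 93.1% lay on listed rows.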

How the data were processed

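Poly(A) RNA was sequenced from 8 NIH3T3 libraries. The submitters' processing notes name STAR 2.7.10a, HOMER 4.11, bcl2fastq and the build mm39 (GRCm39), with no roles. The authors deposited exon read numbers per canonical transcript, in steps of 0.5, which are estimated counts, and FPKM values for the same rows. FPKM recomputed from counts, exon length and header totals differed by at most 5e-04. Coordinates are 1-based on mm39. Counts were rounded and fitted in R 4.3.3 with edgeR 4.0.16 (filterByExpr minimum count 10, TMM factors 0.9946 to 1.007, quasi-likelihood test without a block, Benjamini-Hochberg over 17128 rows). The SE is the log2 fold change divided by the square root of F. Levels are FPKM; overlap of groups was read from TMM-scaled CPM.

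The members and gene lists were chosen with earlier results of these data known. All members are named, with values in every library for called members and their paralogs. The ratios cover 10 chosen pairs of paralogs, taken from a fixed list where both genes were tested. Other possible pairs, among them any with Eno3, were not compared, and the adjustment is over these 10.

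Same-numbered libraries were treated as pairs in the block, since the labels give them 1 batch. Correlations of their deviations from group means over 10450 genes were -0.0878, 0.0781, -0.0160 and -0.0939. Between vehicle and Mic-628 libraries of different numbers the correlations ran from -0.119 to 0.138. Replicates differed by more than counting noise (chi-square per gene 1.74 to 5.79). The fit was tested on simulated data. Alternatives were DESeq2 1.42.0, limma 3.58.1 (voom; trend on log2(FPKM + 1), with and without a filter at a mean of 0.5 FPKM, and on log2(FPKM + 0.1)), other scalings and filters, a batch block, a threshold of 0.01, and leaving out libraries or batches. The share of called rows with a mean of at least 10 CPM was added after the data were seen. Promoter windows are RefSeq's on GRCm38.p6, matched by accession for 33 members and by symbol for 3, and their coordinates are not those of mm39. Figures were drawn with matplotlib 3.10.9.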

Additional observations from a re-analysis of the deposited data

How the results depend on the processing

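The 17 called members (2 higher, 15 lower) were 17 again with DESeq2 size factors, upper-quartile scaling, library size only, the stricter filter (at least 1 CPM in at least 4 libraries) and limma-voom. They were 19 without a filter (Hk1 and Gbe1 added), 13 with DESeq2 and 12 at a threshold of 0.01. With the batch as a replicate block edgeR called 18, having added Gbe1, and it changed no other call of a member; DESeq2 with the block called 12, of which 1 was higher. Limma-trend on log2(FPKM + 1) and on log2(FPKM + 0.1) called 4 each, 2 of them lower. Over all rows with a count limma-trend called 0 members (0 higher, 0 lower) and 0.43% of all rows. It had 20 members at an unadjusted p under 0.05, a threshold at which the share of all rows was not counted. Leaving out 1 library gave 11 to 20 calls, 2 higher each time and 9 to 18 lower. The count was 8 (6 lower) without batch 2 and 8 (6 lower) without batch 3, 15 without batch 1 and 19 without batch 4. The share of all rows called was 4.37% in the full fit. It was 4.26%, 1.93%, 1.70% and 3.89% without batch 1, 2, 3 and 4, and 2.46% to 4.64% without 1 library. DESeq2 called 3.42% of all rows, DESeq2 with the block 1.47% and edgeR with the block 3.64%. Limma-trend called 1.64% on log2(FPKM + 1) and 1.61% on log2(FPKM + 0.1). Without a filter the share was 2.26%, and at a threshold of 0.01 it was 1.93%. The other scalings, the stricter filter and limma-voom gave 4.19% to 4.97%. Calls were lost for Tpi1 and Eno2 without batch 1, 2 or 3, for Eno1, Gpi1, Pgam1, Ldha and Pgk1 without batch 2 or 3, for Aldoa and Gapdh without batch 2, for Pdk4 without batch 3 and for Ldhb without batch 3 or 4. The cause was not tested; each such fit has 6 libraries. Hk2, Pfkl, Gys1, Pdk1, Pgm1 and Eno3 were called under every removal of 1 library or 1 batch.

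No called member changed direction. Pfkfb3, at 0.01 and not called, reversed to -0.00052 in both fits on log2(FPKM + 1), to -0.00046 with 0.1 added, and to -0.019 and -0.018 without batches 2 and 4, and ranged from -0.039 to 0.057 when 1 library was left out. The differences in Ldhb/Ldha log2 ratio (-0.022 to 0.11) and Slc16a3/Slc16a1 log2 ratio (-0.017 to 0.21), neither called, also crossed 0 when 1 library was left out. Within batch pairs the mean of the 4 differences equals the difference of the group means, so no direction could change. There the smallest possible exact p is 0.125. In single batches the direction varied. The Pfkl over Pfkm log2 ratio, lower with Mic-628 on average, was 2.23 in vehicle library 4 and 2.25 in Mic-628 library 4. Under no setting did the median log2 fold change of all tested rows lie further than 0.00825 from 0. Depth limits Slc2a3, Aldoc and Pgam2, which had too few counts to test.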
